A study of Mus musculus with 11 samples.

Results

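The genes of antigen presentation by MHC class II and MHC class I molecules were examined in mouse liver. The 10 genes were taken by their symbols from the table of read counts, which holds 13669 genes. *H2-Aa*, *H2-Ab1*, *H2-Eb1* and *Cd74* are the 4 class II genes, and *B2m*, *H2-K1*, *H2-D1*, *Tap1*, *Psmb8* and *Psmb9* are the 6 genes of class I presentation. All 10 were counted in all 11 livers and passed the filter on low counts with 40 reads or more in every liver. The livers came from male wild-type C57BL/6J mice fed regular chow injected in the tail vein with an adeno-associated viral vector of serotype 8 (rAAV8). In 6 animals (AAV-TuD) the virus expressed a tough decoy (TuD), an RNA that binds and sequesters the microRNAs *miR-379* and *miR-541*, and in 5 animals (AAV-NC) it expressed a negative control sequence. All 11 animals therefore carried the vector, and there was no group without virus. In both groups expression was driven by the liver-specific promoter LP1, so the decoy was directed to hepatocytes. The study's methods describe its mice in general as bought at 6 weeks of age, housed for 4 weeks before the experiments and, in the TuD studies, killed between 4 weeks and 3 months after the vector, without giving the exact age of each of these animals.

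MHC class II molecules present peptides from ingested material to CD4+ T cells and are made mainly by dendritic cells, B cells and macrophages, which in the liver include the resident Kupffer cells. The α and β chains meet the invariant chain Cd74 in the endoplasmic reticulum, Cd74 is degraded in the endosome, and H2-DM exchanges its last fragment for a peptide. The transcription of these genes depends on the coactivator Ciita. MHC class I molecules are made by nearly all nucleated cells, hepatocytes included, and present peptides of cytosolic proteins to CD8+ T cells. These peptides are cut by the proteasome, whose catalytic subunits are replaced by Psmb8 and Psmb9 in the immunoproteasome, and are carried into the endoplasmic reticulum by the Tap1 and Tap2 transporter. Interferon gamma raises both sets of genes. The comparison of the sets within the same livers addresses whether an immune cell signal and a signal shared by most liver cells moved together.

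Most of the members lie in the MHC region of chromosome 17 of GRCm38. *H2-K1* is annotated at chr17:33996017-34000347, *Psmb9* at chr17:34181987-34187764, *Tap1* at chr17:34187553-34197225 and *Psmb8* at chr17:34197721-34201454. They are followed by *H2-Ab1* at chr17:34257689-34269419, *H2-Aa* at chr17:34282744-34287823, *H2-Eb1* at chr17:34305867-34316674 and *H2-D1* at chr17:35262730-35267499. *B2m* lies at chr2:122147686-122153083 and *Cd74* lies outside the MHC region. These spans are those of GENCODE M21, whose starts differ in part from the RefSeq starts used for the promoters below. The *H2-D1* stretch shown there lies inside its span given here.

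Class II promoters are known for their X and Y boxes, and classical class I promoters also for an NF-κB enhancer and an interferon response element. Stretches from 5 promoters are shown to set these elements side by side. The sequences are those of RefSeq on GRCm38.p6, where 8 of the 10 members had a window from 250 bases before to 50 bases after the annotated start. They are written 5′ to 3′ on the strand of the gene. Capitals mark, on either strand, AGCAAC (core of the X box), GATTGG (Y box), GGGATTCCC (NF-κB site of enhancer A) and GAANNGAAA (interferon response element). These motifs did not overlap in the stretches shown.
*H2-Eb1* chr17:34305758-34305837, forward strand: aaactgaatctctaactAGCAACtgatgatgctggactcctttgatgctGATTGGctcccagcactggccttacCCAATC
*H2-Aa* chr17:34287842-34287921, reverse strand: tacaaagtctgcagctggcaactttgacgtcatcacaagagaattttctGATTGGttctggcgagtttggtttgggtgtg
*B2m* chr2:122147584-122147663, forward strand: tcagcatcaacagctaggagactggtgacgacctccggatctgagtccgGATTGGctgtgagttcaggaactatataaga
*H2-K1* chr17:34000378-34000477, reverse strand: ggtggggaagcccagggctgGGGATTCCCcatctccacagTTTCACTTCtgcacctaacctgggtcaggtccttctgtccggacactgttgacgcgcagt
*H2-D1* chr17:35262904-35263003, forward strand: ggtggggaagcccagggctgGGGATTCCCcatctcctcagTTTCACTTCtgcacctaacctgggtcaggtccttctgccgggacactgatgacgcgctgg

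The stretch of *H2-Eb1* held AGCAAC at position -92 and GATTGG at position -60 from the start, in the order of the X and Y boxes on which the Ciita complex assembles. GATTGG stood at -49 in *H2-Aa* and at -54 in *B2m*. Outside the stretches shown, its reverse complement stood at -53 in *H2-D1* and at -6 or 9 in *H2-K1*, depending on the RefSeq start. AGCAAC was present in 14.8% and GATTGG in 16.1% of 32851 promoters, so either motif alone is common. *H2-K1* and *H2-D1* each held GGGATTCCC, present in 0.353% of promoters, followed by the reverse complement of GAANNGAAA, present in 7.52%. Over the 100 bases printed for both genes, 94 were identical without gaps. *Tap1* and *Psmb9* are transcribed in opposite directions from RefSeq starts 226 bases apart. Their windows shared 275 bases and held none of the motifs searched other than GATTGG. A match is a string of letters and was not tested for binding.

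The mature microRNAs that the decoy binds have these sequences, with their seeds (bases 2 to 8) in capitals.
miR-379-5p: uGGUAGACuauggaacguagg
miR-541-5p: aAGGGAUUcugauguuggucacacu

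The complement of the *miR-379* seed was present in the longest annotated 3′ untranslated region of 5.18% of 10965 tested genes and that of the *miR-541* seed in 8.96%. Neither was present in any of the 10 members, whose regions were 191 to 790 bases long. At these shares, finding no match in 10 genes is not unusual. Other parts of the transcripts were not searched. The study reported that its decoy also lowered the host transcripts *lncMGC* and *Mirg* and other microRNAs of the same genomic cluster. The seeds of those other microRNAs were not searched. The libraries were made from polyadenylated transcripts, so the microRNAs themselves were not measured and the effect of the decoy on them cannot be read from these counts.

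Reads came from the 3′ ends of transcripts, with about as many reads for a short as for a long transcript, so levels in counts per 1000000 reads (CPM, on library sizes scaled with the TMM method of edgeR) can be compared between genes without division by length. Totals were between 8148531 and 12043959 reads per liver. Major urinary protein (*Mup*) transcripts made up 38.6% of the reads of AAV-NC 7, 30.9% of AAV-TuD 3 and 28.4% of AAV-TuD 5, and between 8.09% and 18.7% elsewhere. Albumin, the main secreted protein of hepatocytes, was at 17180 CPM or more in every liver. The calls were also computed without these 3 livers, a choice made after seeing the data. With AAV-TuD, 966 of 13334 tested genes were higher and 577 lower, at an adjusted p under 0.05 (edgeR quasi-likelihood test, Benjamini-Hochberg over all tested genes). Scaling by library size alone moved the genome-wide median of the log2 fold change from -0.002 to 0.23 and the share of higher genes among those called from 62.6% to 95.1%.

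All 4 class II genes were higher with AAV-TuD, by 2.16-fold to 3.10-fold, and none of the 6 class I presentation genes passed the test in either direction. Over all tested genes 7.24% were called higher and 4.33% lower. The median log2 fold change was 1.47 for the class II genes and 0.02 for the class I presentation genes, beside -0.002 for all tested genes. At an unadjusted p under 0.05 the class I set held 2 genes, *Psmb8* and *Psmb9*, with opposite signs, and DESeq2 called none of the 6. In a bulk sample, more cells of a type and more RNA per cell cannot be told apart.

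**Figure D1:**
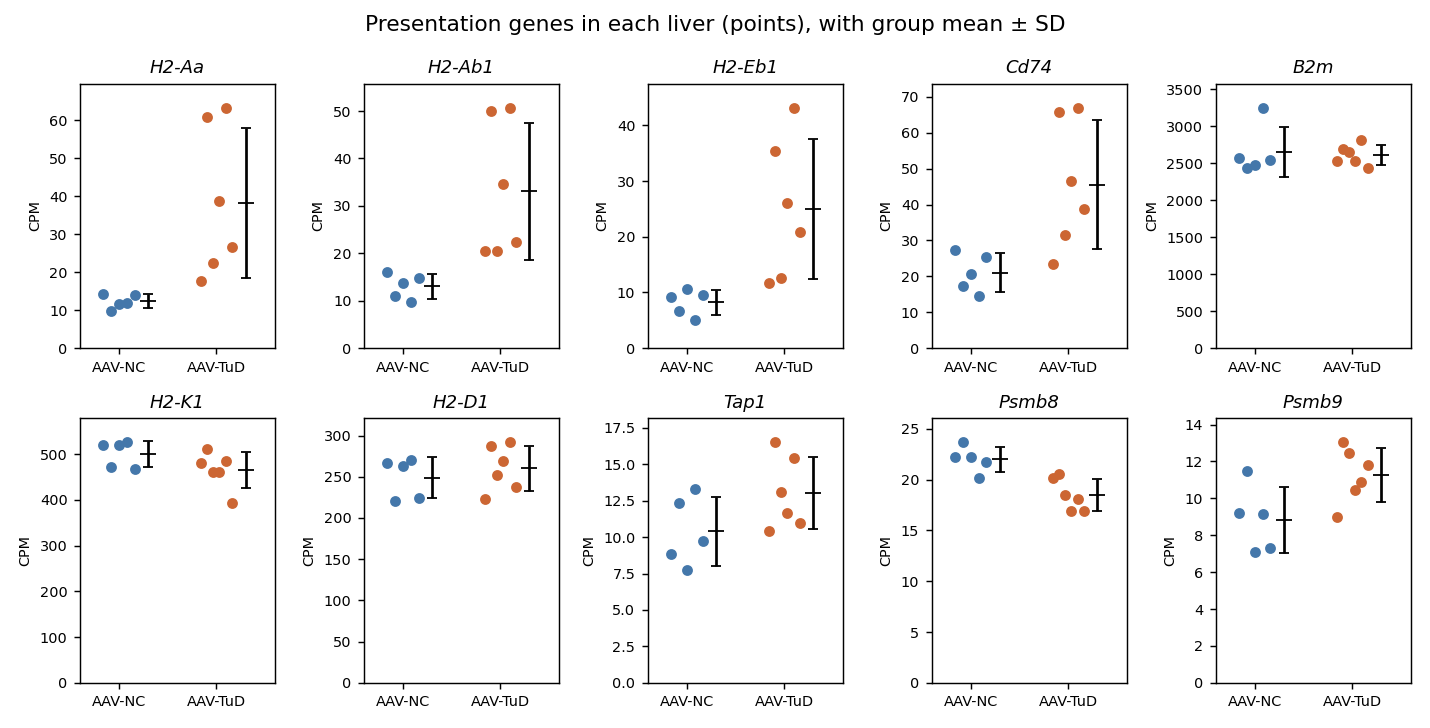
CPM of each member in each liver, with a y axis from 0 in every panel. Blue points are the 5 AAV-NC livers, orange points the 6 AAV-TuD livers, and the bars the mean ± SD. The orange points of *H2-Aa*, *H2-Ab1* and *H2-Eb1* all lie above the blue ones, those of *Cd74* do in 5 of 6 livers, and the groups overlap for the other 6 genes.

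*H2-Aa*, the α chain of I-A, was at 14.3, 9.82, 11.7, 11.8 and 14.0 CPM in AAV-NC livers 1, 2, 6, 7 and 8. With AAV-TuD its lowest level was 17.6, its median 32.7 and its highest 63.4 CPM. The groups did not overlap, a pattern found in 4.11% of all tested genes. The mean rose from 12.3 ± 1.86 (SD, n = 5) to 38.3 ± 19.8 CPM (SD, n = 6), a log2 fold change of 1.63 ± 0.30 (SE, adjusted p = 0.00348, edgeR).

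*H2-Ab1*, the β chain that pairs with it, was at 16, 10.9, 13.7, 9.64 and 14.8 CPM in the same order of AAV-NC livers. With AAV-TuD it lay between 20.4 and 50.7 CPM, with a median of 28.5. Every AAV-TuD liver was again above every AAV-NC liver. Its log2 fold change was 1.34 ± 0.26 (SE, adjusted p = 0.00431, edgeR).

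*H2-Eb1*, the β chain of I-E, was at 9.19, 6.67, 10.6, 5.01 and 9.54 CPM in the AAV-NC livers and between 11.6 and 43.2 CPM with AAV-TuD, with a median of 23.4. The groups were separate, with AAV-TuD 3 only just above AAV-NC 6. Its rise gave a log2 fold change of 1.6 ± 0.32 (SE, adjusted p = 0.00537, edgeR). The partner chain *H2-Ea*, which mice of this MHC haplotype do not express, was not analysed here.

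*Cd74*, the invariant chain, was the most abundant class II transcript in the control livers, at 27.3, 17.3, 20.6, 14.7 and 25.5 CPM. With AAV-TuD its lowest level was 23.4, its median 42.7 and its highest 67.0 CPM. The lowest of these, in AAV-TuD 3, lay inside the AAV-NC range, and the other 5 were above it. This gave a log2 fold change of 1.11 ± 0.25 (SE, adjusted p = 0.00972, edgeR).

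Two-sided exact permutation tests over the 462 splits of the 11 livers gave p = 0.00433 for *H2-Aa*, 0.00649 for *H2-Ab1*, 0.00866 for *H2-Eb1* and 0.013 for *Cd74*. The smallest p this design allows is 0.00216. All 4 calls were kept in each of the 11 fits that left out 1 liver, with log2 fold changes from 0.97 to 1.78 over the 4 genes. Without the 3 livers of high *Mup* share they were 1.92 for *H2-Aa*, 1.5 for *H2-Ab1*, 1.79 for *H2-Eb1* and 1.26 for *Cd74*.

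The AAV-TuD livers differed more among themselves than the controls. The ratio of the highest to the lowest level of *H2-Aa* was 3.61 with AAV-TuD and 1.46 with AAV-NC, and the coefficient of variation was 51.7% against 15.1%. For *H2-Ab1* it was 43.6% against 20.4%, for *H2-Eb1* 50.4% against 28.0% and for *Cd74* 39.3% against 25.5%. The order of the AAV-TuD livers was the same for all 4 genes, with AAV-TuD 10 highest, then 4, 9, 11, 5 and 3. In the control livers AAV-NC 7 was lowest for *H2-Ab1*, *H2-Eb1* and *Cd74*, and AAV-NC 2 for *H2-Aa*. The livers AAV-TuD 3, AAV-TuD 5 and AAV-NC 7, lowest or next to lowest in summed class II in their groups, were those with the highest *Mup* share. The part of this share in the order of the livers was not tested.

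**Figure D2:**
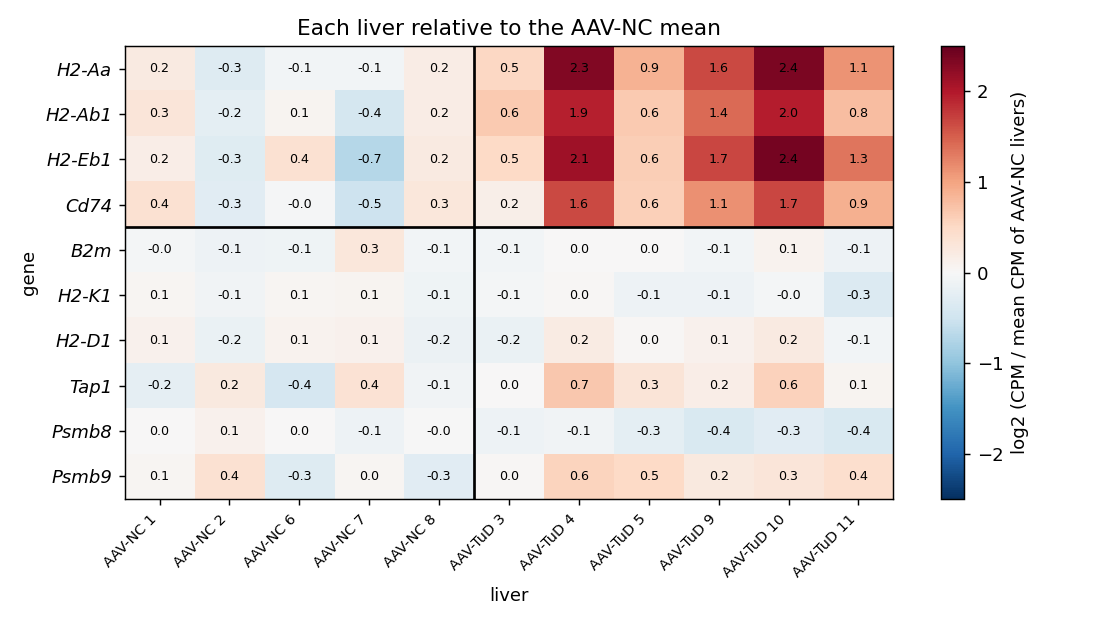
Level of each member in each liver as log2 of its CPM over the mean CPM of the 5 AAV-NC livers, with the value in each cell. Livers are columns, with AAV-NC left and AAV-TuD right of the vertical line, and class II genes stand above the horizontal line. Red fills the 4 upper rows on the right, most in AAV-TuD 4 and AAV-TuD 10, while the 6 lower rows stay pale.

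The class I chains were present at far higher levels and differed little between the groups. *B2m*, the light chain shared by all class I molecules, was the most abundant member, at 2576, 2434, 2482, 3252 and 2541 CPM in AAV-NC livers 1, 2, 6, 7 and 8 and between 2442 and 2820 CPM with AAV-TuD, with a median of 2596. AAV-NC 7 was above all other livers. The log2 fold change was -0.03, with a 95% confidence interval from -0.24 to 0.19 (adjusted p = 0.915, edgeR), and its sign turned without AAV-NC 7 (0.06) and with library size alone (0.23).

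*H2-K1*, the heavy chain of H-2K, was at 518.9, 472.4, 520.0, 525.5 and 466.6 CPM in the AAV-NC livers and between 393.6 and 510.6 CPM with AAV-TuD, with a median of 470.7. Of the AAV-TuD livers 3 lay below all controls and 3 within their range. Its log2 fold change was -0.11 (95% confidence interval -0.27 to 0.06, adjusted p = 0.419, edgeR), and 0.13 with library size alone.

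*H2-D1*, the heavy chain of H-2D, was at 266.6, 220.8, 263.5, 270.0 and 224.4 CPM in the AAV-NC livers and between 222.9 and 291.6 CPM with AAV-TuD, with a median of 260.9. The groups overlapped in 4 of the 6 AAV-TuD livers. The log2 fold change was 0.06 (95% confidence interval -0.12 to 0.25, adjusted p = 0.707, edgeR). The last 300 bases of *H2-K1* match *H2-D1* over 127 bases at 92.1% identity. Those of another class I heavy chain match *H2-D1* over 192 bases at 88.0%. The split of reads between these heavy chains is therefore uncertain. Separately, the last 300 bases of *H2-D1* hold a stretch similar to at least 303 other tested genes, as the number of matches kept was limited.

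*Tap1*, a subunit of the peptide transporter, was at 8.83, 12.3, 7.75, 13.3 and 9.73 CPM in the AAV-NC livers and between 10.4 and 16.5 CPM with AAV-TuD, with a median of 12.4. Only AAV-TuD 4 and AAV-TuD 10, the livers with most class II transcripts, were above every control. The log2 fold change was 0.33 (95% confidence interval -0.01 to 0.67, adjusted p = 0.202, edgeR).

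*Psmb9*, an immunoproteasome subunit, was at 9.19, 11.5, 7.08, 9.14 and 7.30 CPM in the AAV-NC livers and between 9.02 and 13.0 CPM with AAV-TuD, with a median of 11.3. Its log2 fold change was 0.36 (95% confidence interval 0.06 to 0.65, adjusted p = 0.107, edgeR), and without AAV-NC 2 it passed the test, at 0.47 (adjusted p = 0.0429, edgeR). *Psmb8*, the other immunoproteasome subunit among the members, was at 22.2, 23.7, 22.3, 20.1 and 21.7 CPM in the AAV-NC livers and between 16.9 and 20.6 CPM with AAV-TuD, with a median of 18.3. Here 4 of 6 AAV-TuD livers were below every control. The change was -0.25 on the log2 scale (95% confidence interval -0.42 to -0.07, adjusted p = 0.067, edgeR), and without AAV-TuD 3 it passed the test, at -0.27 (adjusted p = 0.0484, edgeR). With library size alone it was -0.02.

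The exact permutation p was 0.879 for *B2m*, 0.119 for *H2-K1*, 0.491 for *H2-D1*, 0.104 for *Tap1*, 0.013 for *Psmb8* and 0.039 for *Psmb9*, without adjustment for the number of genes. The upper limits of the intervals of *B2m*, *H2-K1* and *H2-D1* lay below the lower limit of each class II gene, which was 0.99 for *H2-Aa*, 0.79 for *H2-Ab1*, 0.92 for *H2-Eb1* and 0.58 for *Cd74*. The interval of *Tap1* reached past that of *Cd74*, and so did that of *Psmb9*.

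**Figure D3:**
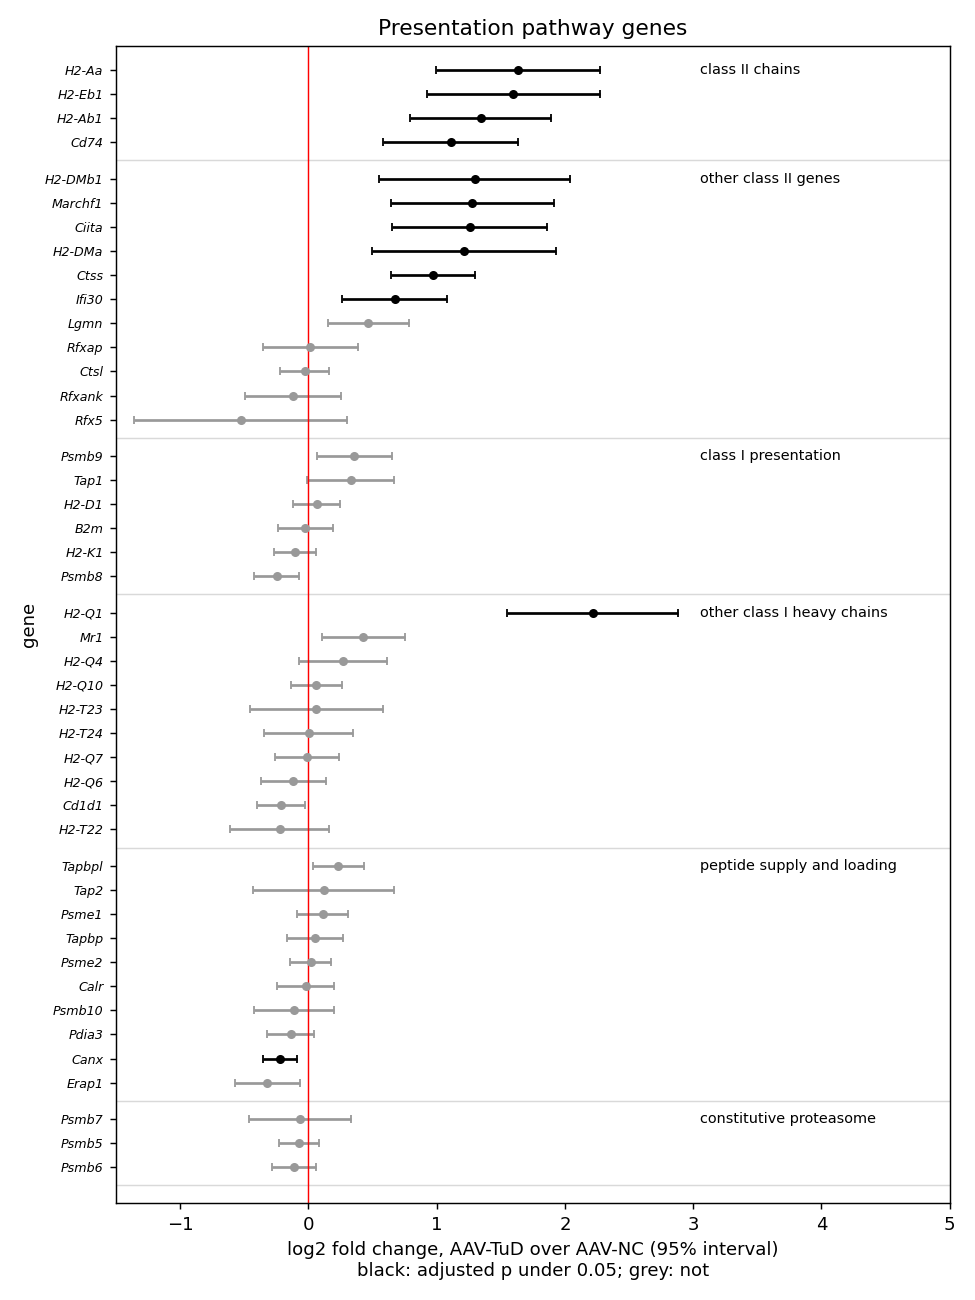
Log2 fold change of AAV-TuD over AAV-NC with its 95% confidence interval for the members and for the other measured genes of the pathways, grouped by role and ordered by size within each group. Black marks an adjusted p under 0.05 (edgeR) and grey the other genes. The 4 class II members and 6 other class II genes are black to the right of 0, and outside class II only *H2-Q1* (right) and *Canx* (left) are black.

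The sets were then compared within each liver, where the scale of the library cancels. Class II transcripts summed to 66.9, 44.7, 56.7, 41.1 and 63.9 CPM in AAV-NC livers 1, 2, 6, 7 and 8 and to between 73.0 and 224.3 CPM with AAV-TuD, with a median of 127.4. Summed *H2-K1*, *H2-D1* and *B2m* lay between 3127 and 4048 CPM in AAV-NC and between 3073 and 3596 CPM in AAV-TuD. Per 1000 of these class I transcripts there were 19.9, 14.3, 17.4, 10.1 and 19.8 class II transcripts in the AAV-NC livers. With AAV-TuD there were 22.6 in the lowest liver, a median of 40.1 and 62.4 in the highest. The groups did not overlap, and the mean was 2.58 times that of AAV-NC, with a range of 2.33 to 2.82 when 1 liver was left out and 2.85 without the 3 livers of high *Mup* share. No p is given for this ratio, because its members were chosen with earlier results known.

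Some ratios between members, chosen after seeing the data, also shifted. *Psmb9* transcripts per *Psmb8* transcript were between 0.318 and 0.484 in AAV-NC and between 0.447 and 0.697 in AAV-TuD, where 5 of 6 livers were above every control. *Cd74* transcripts per transcript of the 3 class II chains fell outside the control range in 4 of 6 AAV-TuD livers, with means of 0.622 ± 0.059 (SD, n = 5) and 0.49 ± 0.059 (SD, n = 6). *H2-K1* transcripts per *H2-D1* transcript were between 1.95 and 2.14 in AAV-NC and between 1.66 and 2.16 in AAV-TuD, with 5 of 6 livers below every control. These ratios were not tested.

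After removal of the group means, the 4 class II genes varied together over the 11 livers, with Pearson's r from 0.90 to 0.95 for the 6 pairs. With the 2 livers farthest from the median left out, r lay between 0.79 and 0.95. For the 15 pairs of class I presentation genes r lay between -0.30 and 0.66 with a median of 0.29, and for the 24 pairs of a class II with a class I gene between -0.09 and 0.75 with a median of 0.17. With the 2 farthest livers left out these ranges were -0.30 to 0.64 and -0.32 to 0.62. Over the 6 AAV-TuD livers alone r was higher, with a median of 0.98 within class II, 0.50 within class I presentation and 0.55 between the sets. There *H2-D1* followed the class II genes most closely, at 0.88 to 0.95, and *Tap1* was at 0.72 to 0.84. The highest r within class I, 0.66, was that of *Tap1* and *Psmb9*, the neighbours with a shared promoter window. All pairs share their libraries and scaling factors, so these are descriptions.

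Among 8289 genes outside the lists with a mean of at least 50 reads, the 5 most like *H2-Ab1* after removal of the group means were *Isg15* and *Gbp7*, which interferons induce, *Mt1*, a metallothionein, and the glutathione transferases *Gsta1* and *Gsta13*, with r from 0.91 to 0.92 over 11 livers. *Gbp7* was higher with AAV-TuD (log2 fold change 0.55, adjusted p = 0.0134, edgeR), and so was *Mt1* (1.74, adjusted p = 0.00797, edgeR). *Isg15* was at 12.2 and 15.2 CPM on average (adjusted p = 0.223, edgeR), and *Gsta1* and *Gsta13* were at log2 fold changes of -0.02 and 0.02. The 5 genes most like *H2-K1* were *Btg3*, *Ric8a*, *Ltv1*, *Stk38l* and *Gm37670*, with r from 0.87 to 0.89. None of them was called, at adjusted p values from 0.0602 to 0.906 (edgeR). Both sets were picked for the highest r of 8289 genes over only 11 livers. High values follow in part from that choice, and the likeness was not tested.

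Of 16 other genes of the class II pathway 11 were tested, and 6 were higher with AAV-TuD and none lower, with a median log2 fold change of 0.67. *Ciita*, the class II coactivator, was at a mean of 1.6 CPM in AAV-NC and 3.79 CPM in AAV-TuD (log2 fold change 1.26 ± 0.28, SE, adjusted p = 0.0104, edgeR), and 5 of 6 AAV-TuD livers were above every control. The peptide exchange chains *H2-DMa* (1.21, adjusted p = 0.0302, edgeR) and *H2-DMb1* (1.30, adjusted p = 0.0257, edgeR) were higher, as were *Ctss*, the cathepsin that trims Cd74 (0.97, adjusted p = 0.00133, edgeR), *Ifi30*, a lysosomal thiol reductase (0.67, adjusted p = 0.0344, edgeR), and *Marchf1*, a ubiquitin ligase of class II molecules (1.28, adjusted p = 0.0126, edgeR). *Ctss* was between 25.2 and 29.0 CPM in AAV-NC and between 33.6 and 70.2 CPM in AAV-TuD, without overlap. Some of the genes called held few reads, with *Marchf1* between 2 and 44 per liver and *H2-DMb1* between 6 and 71. *Ctss* held 201 to 786 and *Ifi30* 75 to 256. Only 7 of the 11 had more than 10 reads in every liver, so the others passed the filter partly through the livers where they were high. The count fell to 3 without AAV-NC 6, AAV-TuD 4 or AAV-TuD 10.

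Of 13 other class I heavy chains 10 were tested and 1 was higher. This was *H2-Q1*, a Qa region gene, at 3.34, 4.78, 3.87, 1.0 and 2.92 CPM in the AAV-NC livers and between 7.04 and 20.5 CPM with AAV-TuD (log2 fold change 2.22 ± 0.32, SE, adjusted p = 0.000665, edgeR). Its groups did not overlap, and its change was larger than that of any member, against the median of 0.03 of its list. Its last 300 bases are 94.3% identical to *H2-Q2*, which was not analysed here, so reads may be shared between these copies. Without AAV-NC 2 the list held 2 higher genes.

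Of 10 tested genes of class I peptide supply and loading none was higher, 3 passed at an unadjusted p under 0.05, DESeq2 called none higher, and the median log2 fold change was -0.001. *Canx*, a chaperone of newly made heavy chains and of many other glycoproteins, was lower, at 226.3 ± 11.5 CPM (SD, n = 5) and 194.2 ± 9.05 CPM (SD, n = 6), a log2 fold change of -0.22 (adjusted p = 0.0326, edgeR). Each AAV-TuD liver was below each control, but the call was lost in 8 of the 11 fits that left out 1 liver (AAV-NC 1, 2, 7 or 8, or AAV-TuD 4, 9, 10 or 11) and with library size alone. Of the catalytic subunits of the constitutive proteasome, *Psmb5*, *Psmb6* and *Psmb7* were at log2 fold changes of -0.08, -0.11 and -0.07, and none of the 3 was called by edgeR or DESeq2 or had an unadjusted p under 0.05.

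Of the genes of interferon gamma signaling and class I regulation, *Irf8*, a transcription factor of macrophages and dendritic cells, was at 8.63 and 13.7 CPM on average in AAV-NC and AAV-TuD (log2 fold change 0.65, adjusted p = 0.0326, edgeR), and 4 of 6 AAV-TuD livers were above every control. The call was lost without AAV-NC 1, 2, 6 or 7 or AAV-TuD 4 or 10, at log2 fold changes from 0.53 to 0.66.

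Most pan-leukocyte and Kupffer cell markers were also higher with AAV-TuD. Of 6 tested pan-leukocyte markers 5 were higher (median log2 fold change 0.93), and their sum was between 24.6 and 31.8 CPM in AAV-NC and between 28.6 and 76.7 CPM in AAV-TuD. Their most abundant genes were *Ptprc*, which encodes CD45, at a log2 fold change of 0.70 (adjusted p = 0.0297, edgeR), and *Laptm5*, a lysosomal protein of blood cells, at 0.86 (adjusted p = 0.00958, edgeR). The count was 3 without AAV-NC 1, 2 or 6 or AAV-TuD 4, 9 or 10. Of 10 Kupffer cell markers 7 were higher (median 0.87), with a sum between 125.9 and 186.0 CPM in AAV-NC and between 140.6 and 398.9 CPM in AAV-TuD. The most abundant were *Csf1r*, the receptor of the macrophage growth factor, at 0.98 (adjusted p = 0.0116, edgeR), and the complement gene *C1qb*, also at 0.98 (adjusted p = 0.0104, edgeR).

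Of 8 markers of monocytes and recruited macrophages 5 were tested and all 5 were higher (median 2.11), led in abundance by *Lyz2* (log2 fold change 1.34, adjusted p = 0.00537, edgeR) and *Spp1* (2.20, adjusted p = 0.000118, edgeR). *Ccr2* and *Gpnmb* had no control liver above 10 reads and entered the test through the AAV-TuD livers. Only *Lyz2* and *Spp1*, 2 of the 5, had more than 10 reads in every liver. The count and the median of this list therefore rest partly on genes that passed the filter through the livers where they were high. Their list sum lay between 17.7 and 30.8 CPM in AAV-NC and between 52.2 and 97.7 CPM in AAV-TuD. The 5 AAV-TuD livers other than AAV-TuD 3 were above every control in both the pan-leukocyte and the Kupffer cell sums. The sums did not follow class II in every liver. AAV-TuD 5 and AAV-TuD 4 had Kupffer cell sums of 303.3 and 301.7 CPM but class II sums of 87.1 and 212.4 CPM. The part of these cells in the class II difference was not tested.

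Among the cells that present on class II, dendritic cells and B cells were thinly covered. Of 10 dendritic cell markers 3 were tested. *Zbtb46* was at a log2 fold change of 0.01 and *Cd24a*, which other cells also express, at 2.14 (adjusted p = 5.4e-05, edgeR). *Clec9a* was at 0.81 (adjusted p = 0.107, edgeR), with 4 of 6 AAV-TuD livers above every control. The sum was between 5.85 and 10.9 CPM in AAV-NC and between 13.2 and 16.8 CPM in AAV-TuD. Only 1 of the 3 had more than 10 reads in every liver. *Cd24a* passed that minimum in 3 AAV-NC and 6 AAV-TuD livers, so its call rests partly on the livers where it was high. Of 9 B cell markers *Ighm* (-0.48, adjusted p = 0.291, edgeR) and *Igkc* (0.09, adjusted p = 0.906, edgeR) were tested, and neither was called by edgeR or DESeq2 or had an unadjusted p under 0.05. Their sum was between 5.87 and 12.2 CPM in AAV-NC and between 5.82 and 9.58 CPM in AAV-TuD. The remaining markers of both lists were not analysed here. For T and NK cells only *Ccl5* was tested (1.05, adjusted p = 0.308, edgeR) and for neutrophils only *S100a9* (0.33, adjusted p = 0.684, edgeR).

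Class II transcripts per pan-leukocyte marker transcript were 1.90 ± 0.40 (SD, n = 5) in AAV-NC and 2.51 ± 0.59 (SD, n = 6) in AAV-TuD, with 4 of 6 livers above every control. Per Kupffer cell marker transcript they were 0.391 ± 0.106 and 0.529 ± 0.138, with 5 of 6 above. Per dendritic cell marker transcript they were 6.50 ± 3.02 and 9.42 ± 3.60, with 2 of 6 above. The fold between group means was thus 1.32, 1.35 and 1.45 on these scales, against 2.60 for the class II sum itself. These ratios are descriptions without a test. No such ratio was computed for the monocyte and recruited macrophage markers. Their sum was between 17.7 and 30.8 CPM in AAV-NC and between 52.2 and 97.7 CPM in AAV-TuD. Their median log2 fold change was 2.11, above the 1.47 of the class II genes. The 3 ratios therefore do not show that class II rose beyond every immune cell list. The dendritic cell sum rested on 3 genes. Of these *Zbtb46* was at 6.2 CPM on average in both groups, and *Clec9a* at 1.66 CPM in AAV-NC and 2.91 CPM in AAV-TuD. *Cd24a*, which other cells also express, was at 1.28 CPM in AAV-NC and 5.62 CPM in AAV-TuD. The fold of 1.45 is therefore not a measure of class II transcripts per dendritic cell.

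**Figure D4:**
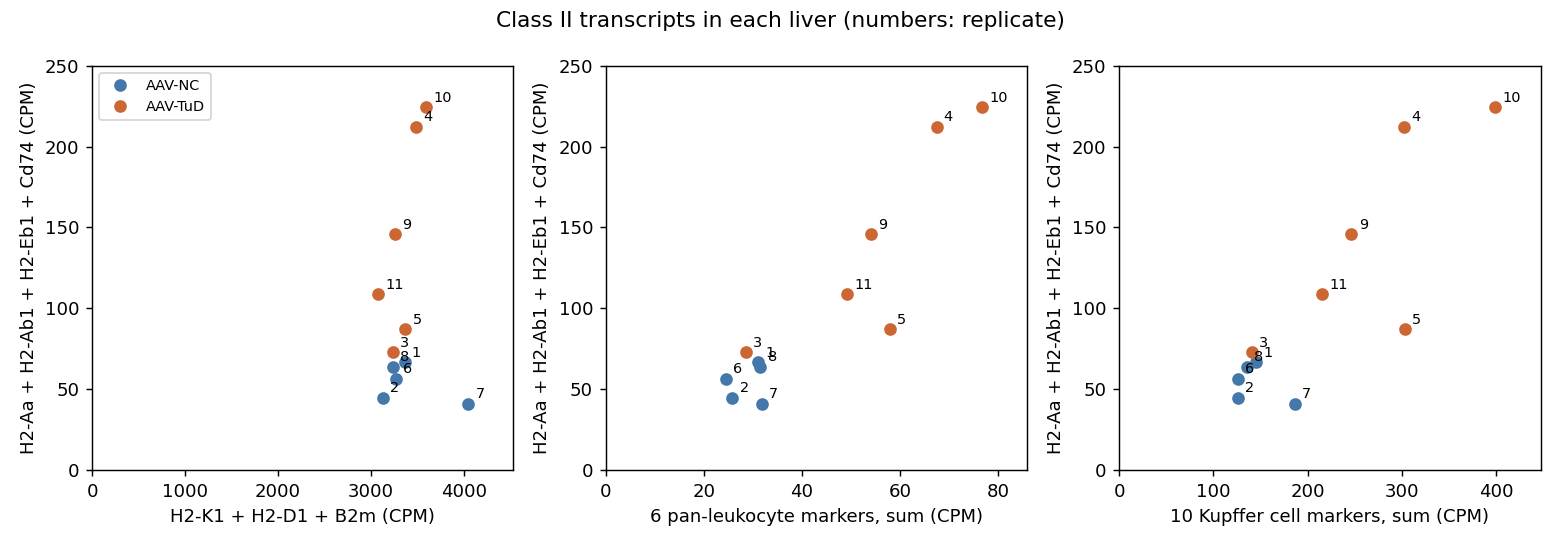
Summed CPM of the 4 class II genes (y axis) in each liver against the summed CPM of *H2-K1*, *H2-D1* and *B2m* (left), of 6 pan-leukocyte markers (middle) and of 10 Kupffer cell markers (right). Blue points are AAV-NC and orange points AAV-TuD livers, numbered by replicate, and all axes start at 0. The class I sums stay between 3073 and 4048 CPM over the whole class II range. Both marker sums are highest in AAV-TuD 10, the liver with most class II transcripts. In AAV-TuD 5 the Kupffer cell sum is 303.3 CPM and the class II sum 87.1 CPM.

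Other liver cells did not all move with them. None of 8 sinusoidal endothelial markers was called by edgeR or DESeq2 or had an unadjusted p under 0.05 (median log2 fold change -0.03), with *Ptprb* at 0.03 and *Kdr* at -0.03. Their sum was between 251.1 and 277.1 CPM in AAV-NC and between 248.7 and 270.1 CPM in AAV-TuD. Of 8 hepatic stellate cell markers 6 were higher (median 0.87), with *Dcn* at 0.79 (adjusted p = 0.000231, edgeR) and *Ecm1* at 0.42 (adjusted p = 0.0608, edgeR). Of 8 hepatocyte markers 1, *Hnf4a*, was lower, and the median was -0.12, while the most abundant, *Alb* and *Apoa1*, were at 0.41 (adjusted p = 0.0805, edgeR) and -0.20 (adjusted p = 0.363, edgeR). *Alb* was between 17180 and 23300 CPM in AAV-NC and between 25670 and 33280 CPM in AAV-TuD, without overlap, and was called higher by DESeq2 and by edgeR without the *Mup* genes. *Hnf4a* was not called with library size alone.

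**Figure D5:**
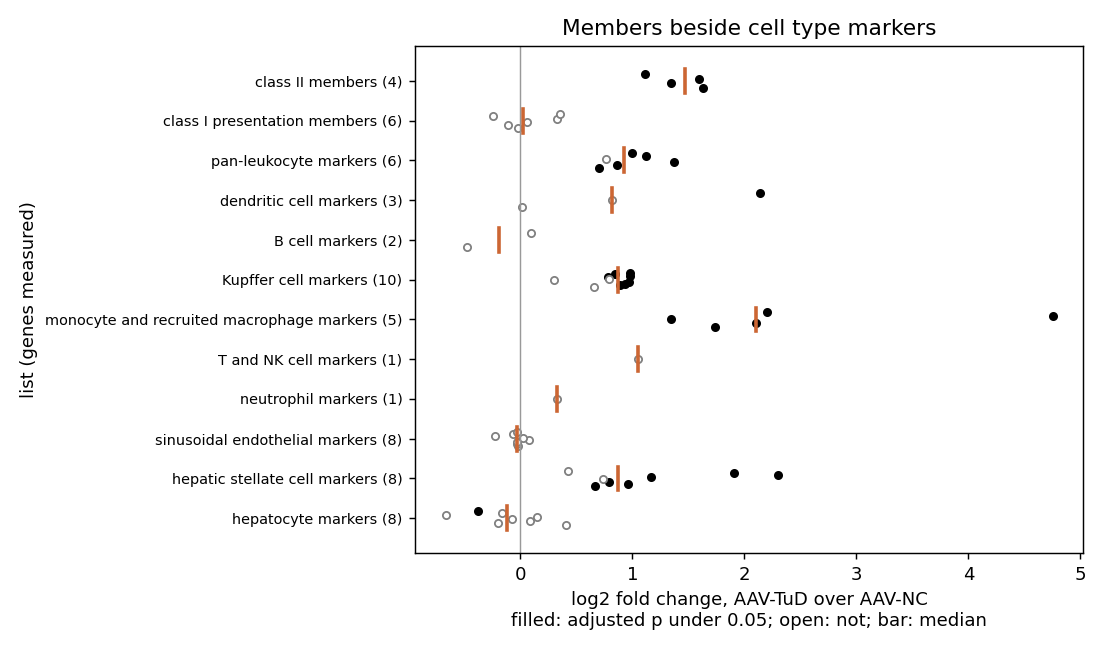
Log2 fold change of AAV-TuD over AAV-NC for each measured gene of the member sets and of 10 lists of cell type markers, with the number of measured genes in brackets. Filled points have an adjusted p under 0.05 (edgeR), open points do not, and the orange bar is the median. The class II median of 1.47 lies above those of the pan-leukocyte (0.93) and Kupffer cell (0.87) markers. It lies below that of the monocyte and recruited macrophage markers (2.11). Only 2 of these 5 markers had more than 10 reads in every liver. The class I median lies at 0.02, near the sinusoidal endothelial one of -0.03.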

How the data were processed

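The liver RNA of 5 AAV-NC and 6 AAV-TuD mice was used, grouped by the sample labels. The authors prepared QuantSeq 3′ mRNA libraries, used BBDuk for trimming, STAR 2.5.3a for alignment to GRCm38 and Rsubread for counting, and deposited counts of reads per gene, without normalization, which they tested with DESeq2 1.38.3. The annotation, the strand setting and the treatment of reads matching several genes are not given in the sources used here. The labels name no batch and do not say more on how the livers were sampled, so p values measure the spread between these samples.

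The 13334 of 13669 genes above 10 reads in 5 or more livers were tested with the edgeR 4.0.16 quasi-likelihood test (R 4.3.3), TMM factors (0.667 to 1.24) and Benjamini-Hochberg adjustment at 0.05. Log2 CPM used a prior count of 2, and exact permutation tests compared mean log2 CPM. The members and all lists were chosen with earlier results of these data known, so no list was tested. The text names the 10 members, in each pathway list the genes called (the 3 of smallest p where none or more than 6 were), the 2 most abundant genes of each marker list, and the 5 genes most like *H2-Ab1* and *H2-K1*. A gene that this rule selects is not reported here. *H2-Ea* and *H2-Q2* were named outside the rule, and so were *Ccr2*, *Gpnmb*, *Hnf4a* and *Clec9a*, after their values were seen. The last 300 bases of transcripts were compared with GENCODE M21 transcripts by BLAST 2.17.0, counting matches of 100 bases or more. The alternatives were DESeq2 1.42.0, its size factors, no filter or that of edgeR, scaling by upper quartile or by library size alone, removal of *Mup* genes and each liver left out, plus 3 livers left out together, added after seeing the data. The test was checked on simulated counts with known changes.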

Additional observations from a re-analysis of the deposited data

Results flagged for a closer look

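A single liver stood far from the others of its group in 2 of the 26 groups of values examined. Chance gives about 1 in 20 for independent groups. These groups were not independent, because they include sums and a ratio of the same genes, so the count cannot be set against that share. *B2m* in AAV-NC 7, at 3252 CPM, was above the other 4 control livers (2434 to 2576 CPM), and the gap to the nearest was 0.826 of the range of the group. The sum of *H2-K1*, *H2-D1* and *B2m*, most of which is *B2m*, was also highest in AAV-NC 7, at 4048 CPM, with a gap of 0.745 of the range. This liver had the largest share of *Mup* reads, 38.6%, and the lowest TMM factor, 0.667, and their part in these values was not tested.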

How the results depend on the processing

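The 4 class II calls were kept under all 19 alternatives run, with log2 fold changes from 0.97 to 1.94 over the 4 genes, and the class II to class I ratio kept its direction in the 12 alternatives that apply to it. The count of class I presentation genes called higher was 0 to 1 when 1 liver was left out, the 1 being *Psmb9* without AAV-NC 2, and that of members called lower was 0 to 1, the 1 being *Psmb8* without AAV-TuD 3. The count of pathway genes called higher, 9 in all, was 4 to 11 when 1 liver was left out. It was 4 without AAV-TuD 4, AAV-TuD 10 or AAV-NC 6 and 5 without AAV-NC 7. The log2 fold change of *B2m* turned to 0.235 with library size alone, 0.059 without AAV-NC 7 (range -0.054 to 0.059 with 1 liver left out) and 0.06 without the 3 livers of high *Mup* share, and that of *H2-K1* to 0.134 with library size alone, in each case without passing the test. The cause was not tested. No paired analysis was possible because the groups share no replicate number. Genes near 1 CPM, such as *Ciita* and *Marchf1*, rest on few reads.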
